A study of Mus musculus with 2 samples.

Results

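The genes described here mark the identity of brain cells and the handling of glutamate in HT22, a mouse line that stems from hippocampal nerve cells. They are 57 genes chosen by symbol, with earlier results of these data known. They comprise glutamate receptors, transporters and enzymes, synaptic genes, neuronal cytoskeleton and marker genes, progenitor genes and glial markers. All probe sets annotated to 1 of these symbols and to no other gene were read, and 56 of the 57 genes have any, 156 probe sets in all, out of 18193 genes and 45037 probe sets that are not controls. The remaining gene, the NMDA receptor subunit Grin1, has no probe set in the annotation used and was not analysed here. RNA was taken from 1 culture treated with the compound J147 for 1 h and from 1 culture treated for 1 h with the DMSO vehicle, and each was hybridized to 1 Affymetrix mouse genome GeneChip, which reads most genes by several probe sets near their 3′ end. The cells had been plated the day before in DMEM with fetal calf serum. The J147 concentration is 10 μM in the methods and 10 mM in the sample labels. The title of the control sample names the DMSO vehicle, while its treatment label reads untreated. With 1 array per condition there was no replicate, no test of any difference was possible, and an effect of J147 and a chance difference between the 2 cultures cannot be told apart.

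Glutamate is the main excitatory transmitter of the brain. Neurons load it into vesicles with vesicular transporters and release it by SNARE proteins, and postsynaptic cells sense it through ion channel receptors of the AMPA, kainate and NMDA types and through receptors coupled to G proteins. Astrocytes clear it with high-affinity transporters of the SLC1 family and convert it to glutamine. HT22 cells are widely used to study oxidative death caused by glutamate, which is known to act in them through a block of cystine uptake. Levels are gcRMA intensities on the log2 scale, which correct the background by the base composition of the probes and have a lowest possible value, here 2.23. A probe set within 0.01 log2 units of that value on both arrays is called at the lowest value. Differences are J147 minus vehicle on the same log2 scale.

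Most of these identity genes gave no signal above the lowest value on either array. Of the 56 genes, 34 (60.7%) had every probe set there, against 38.0% of all annotated genes. Of their 156 probe sets, 107 (68.6%) were at the lowest value, against 45.5% of all probe sets that are not controls. The genes were chosen with earlier results of these data known, so these shares are descriptions only. A further 4 genes, Grik2, Syp, Nes and Neurod1, lay within 1 log2 unit above it, and 18 genes lay further above. The lowest value does not show that an mRNA was absent, and in bulk RNA fewer cells with a transcript and less of it per cell cannot be told apart. Of the 18 genes off the lowest value that have several probe sets, 10 also had a probe set at it. Of the 34 genes at it, 17 were read by at least 3 probe sets and 6 by a single probe set.

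**Figure D1:**
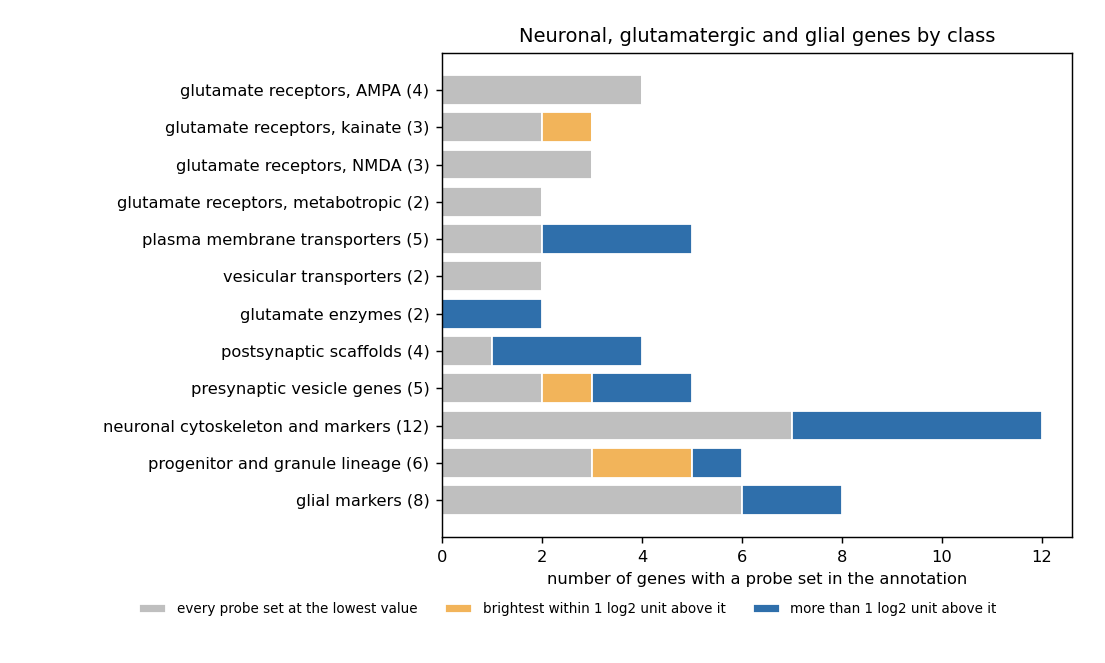
Number of genes (horizontal axis) of each class (vertical axis, genes with a probe set in parentheses) with every probe set at the lowest value on both arrays (grey), with the brightest probe set within 1 log2 unit above it (orange) or further above it (blue). All AMPA, NMDA and metabotropic receptor genes read here and both vesicular transporters are grey, and both glutamate enzymes are blue.

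The label of a neuronal line was set against marker genes. Of 11 neuronal markers, Tubb3 and Syn1 lay more than 1 log2 unit above the lowest value, Syp lay within 1 unit of it, and the other 8, Map2, Rbfox3, Snap25, Syt1, Dcx, Stmn2, Nefl and Nefm, were at it. Both markers of glutamatergic neurons, the vesicular transporters Slc17a6 and Slc17a7, were at it. The markers of glia and progenitors were also mostly low, with 2 of 7 for astrocytes, 1 of 5 annotated for the oligodendrocyte lineage and 1 of 4 for neural progenitors more than 1 log2 unit above it. Of 8 fibroblast markers 6 were that far above it, of 7 microglia markers 2 and of 5 endothelial markers none. Among the fibroblast markers Acta2 lay within 1 log2 unit of it and Tagln was at it. Of all 18193 annotated genes, 11285 were off the lowest value by any amount. The share of all genes more than 1 log2 unit above it was not counted, here or for the lists below. These counts therefore have no background beside them. The count depends on the list: of the 12 genes of neuronal cytoskeleton and markers described below, 5 lay more than 1 log2 unit above the lowest value, several of them also known from other cells. The genes are therefore described one by one rather than as an identity of the cells.

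The J147 and vehicle arrays were close for these genes. Of the 49 probe sets off the lowest value, none was 1.5-fold or more higher or lower, and of all 24552 such probe sets 0.815% were that much higher and 0.688% that much lower. At those shares, a count of 0 among 49 is near the background and is not a result about these genes. At 1.2-fold, 1 of the 49 was higher with J147 and 3 were lower, against 4.77% higher and 5.40% lower among all probe sets. The median log2 difference of the 22 genes, each by its brightest probe set, was 0.00167, beside 0 over all 11285 genes off the lowest value. Identical values on both arrays were held by 7 of the 49 probe sets (14.3%), against 22.4% of all. The SD of the difference over all probe sets depended on the level and is used below as the scale of scatter: 0.14 for means from 2 to 4 log2 units, 0.24 from 4 to 6, 0.21 from 6 to 8, 0.16 from 8 to 10, 0.13 from 10 to 12 and 0.05 from 14 to 16. It is a spread over different probe sets of 1 pair of arrays, not over cultures.

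**Figure D2:**
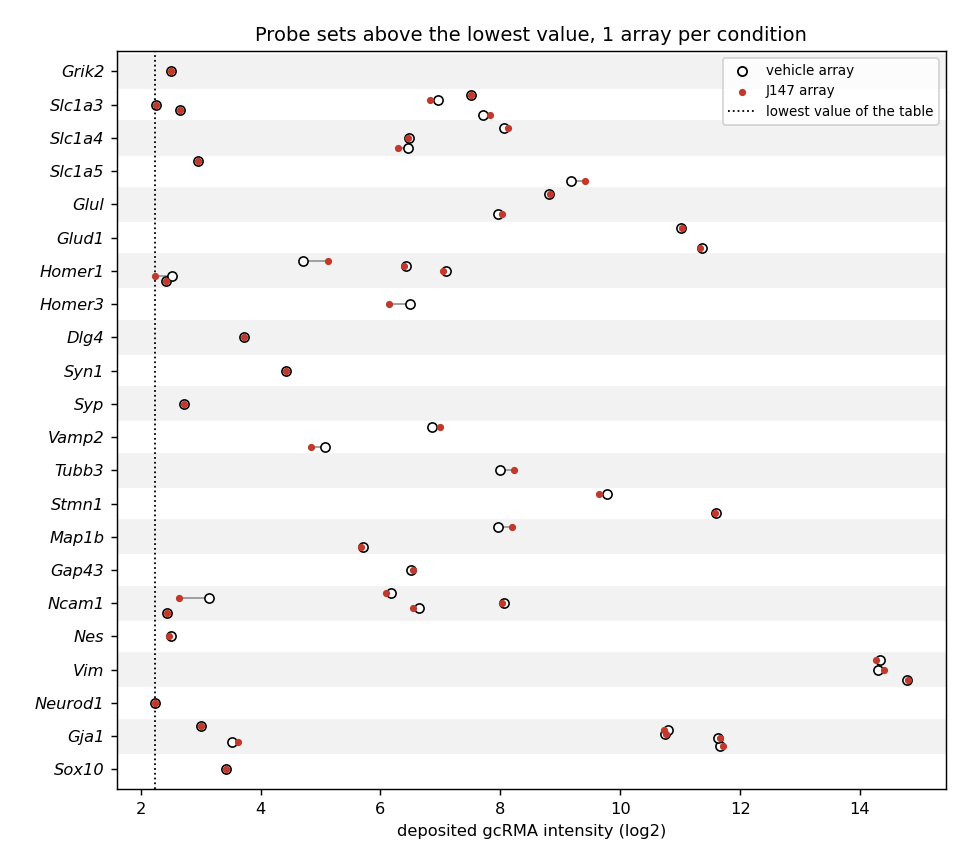
Deposited gcRMA intensity on the log2 scale (horizontal axis) of the 49 probe sets off the lowest value, by gene (vertical axis), with open circles for vehicle and red dots for J147, 1 array each, with a grey line joining the values of a probe set. The longest lines belong to single low probe sets of Ncam1 and Homer1, and most pairs lie on top of each other.

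Glutamate receptors gave almost no signal on either array. Of 12 receptor genes read here, 11 had every probe set at the lowest value, 26 of 27 probe sets in all. These were the AMPA receptor subunits Gria1, Gria2, Gria3 and Gria4, the kainate receptor subunits Grik1 and Grik5, the NMDA receptor subunits Grin2a, Grin2b and Grin2d, and the metabotropic receptors Grm5 and Grm7. The exception was 1 of the 2 probe sets of Grik2, another kainate receptor subunit, which had a log2 intensity of 2.51 on both arrays. Other glutamate receptor genes from a separate list were alike, with 8 of 10 at the lowest value. The kainate subunit Grik4 had 3.67 on both arrays and the NMDA subunit Grin3b had 2.28 for vehicle and 2.29 for J147. Of 10 auxiliary subunits of these receptors, 8 were at the lowest value, and Cnih2, at 2.90 on both arrays, and Cacng2, at 2.28 on both, were within 1 log2 unit of it.

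The glutamate transporters of the plasma membrane were split. Slc1a1, the transporter known from neurons, had its 3 probe sets at the lowest value, and Slc1a2, the main glutamate transporter of forebrain astrocytes, had its 5 there. Slc1a3, a glutamate transporter of astrocytes and radial glia, was measured by its probe set 1426340_at at 7.72 for vehicle and 7.83 for J147, a difference of 0.12. Its probe set 1452031_at had 7.51 on both arrays and 1443749_x_at had 6.96 and 6.82, so its brighter probe sets went in different directions. Of the other Slc1a3 probe sets, 1 was at the lowest value and 2 had identical values below 3 log2 units.

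Slc1a4 and Slc1a5 belong to the same family but carry neutral amino acids, and Slc1a5 is a main route of glutamine into dividing cells. Slc1a5 had 9.18 for vehicle and 9.41 for J147, 1.17-fold higher, and 11.9% of all probe sets between 8 and 10 log2 units differed by at least as much. Its second probe set had 2.95 on both arrays. Slc1a4 had 8.06 for vehicle and 8.13 for J147 by its brightest probe set, 6.47 on both arrays by the next, and 6.46 and 6.29 by the last, a difference of -0.17. None of these differences was larger than 1.5 SD at its level. Both vesicular glutamate transporters, Slc17a6 (VGLUT2) and Slc17a7 (VGLUT1), were at the lowest value by all their probe sets.

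The enzymes that use glutamate were measured. Glul, glutamine synthetase, had 8.82 on both arrays by its brighter probe set and 7.96 for vehicle and 8.03 for J147 by the other. Glud1, the mitochondrial glutamate dehydrogenase, had 11.36 for vehicle and 11.34 for J147 by one probe set and 11.01 and 11.02 by the other. The largest difference of the 4 probe sets was 0.07. In a wider list of glutamate metabolism and transport, 9 of 13 annotated genes lay more than 1 log2 unit above the lowest value. The other 4 were at it, against 38.0% of all annotated genes. Got1, the cytosolic aspartate aminotransferase, had the largest difference, with 10.07 for vehicle and 10.30 for J147, a log2 difference of 0.23. Got2, its mitochondrial counterpart, differed by 0.06 and the glutamine transporter Slc38a1 by 0.08. The cystine and glutamate exchanger consists of Slc7a11 and Slc3a2. Slc7a11 had 4.61 for vehicle and 4.75 for J147 by 1 probe set while the other was at the lowest value, and Slc3a2 had 10.87 for vehicle and 10.91 for J147. Gad1 and Gad2, which make GABA from glutamate, and the transporters Slc1a6 and Slc1a7 were at the lowest value. No gene of the list differed by 1.5-fold.

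Homer proteins are scaffolds that link metabotropic glutamate receptors to other postsynaptic proteins, and short forms of Homer1 are known as products of an immediate early gene. The 6 probe sets of Homer1 differed among themselves. Probe set 1436387_at had 7.09 for vehicle and 7.05 for J147, and 1437363_at had 6.43 and 6.39. Probe set 1439662_at had 4.71 for vehicle and 5.12 for J147, 1.33-fold higher, the largest upward difference among the 49 probe sets. Among all probe sets between 4 and 6 log2 units, 9.50% differed by at least as much. Probe set 1425710_a_at was lower, with 2.52 for vehicle and 2.24 for J147, 1421768_a_at had 2.42 on both arrays, and the last was at the lowest value. Which Homer1 transcript each probe set reads was not worked out, so no form of Homer1 is named.

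Homer3 had 6.50 for vehicle and 6.14 for J147 by its single probe set, 1.28-fold lower, and 9.08% of all probe sets between 6 and 8 log2 units differed by at least as much. Homer2 was at the lowest value by all 3 probe sets. Dlg4, which encodes the postsynaptic scaffold PSD-95, had 3.72 on both arrays by 1 probe set and was at the lowest value by the other 2. The Homer genes thus had differences on both sides of 0, each within 2 SD at its level except 1425710_a_at, which ended near the lowest value.

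Of the genes of synaptic vesicles, those known mainly from neurons were low. Snap25, the neuronal SNARE of the plasma membrane, and Syt1, the calcium sensor of transmitter release, had all probe sets at the lowest value. Syp, an abundant protein of synaptic vesicles, had 2.73 on both arrays by 1 of 2 probe sets. Syn1, which tethers vesicles to actin, had 4.42 on both arrays by its single probe set. Vamp2, the vesicle SNARE of neurons that other secretory cells also use, was the exception, with 6.86 for vehicle and 7.00 for J147 by one probe set and 5.07 and 4.84 by the other, so its probe sets went in opposite directions.

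In a list of other synaptic genes, 10 of 23 annotated genes were at the lowest value, among them Syn2, Pclo and Shank1. Over all annotated genes that share was 38.0%. Of the 23 genes, 6 lay within 1 log2 unit of that value and 7 further above. The largest differences were of low probe sets: Syngr1, a vesicle protein, had 3.06 for vehicle and 3.56 for J147, and Vamp1, a vesicle SNARE, had 3.87 and 3.42. The presynaptic scaffold gene Bsn had 7.94 for vehicle and 8.14 for J147 by its brightest probe set and 7.00 and 7.40 by another. The adhesion gene Nlgn2 had 7.42 for vehicle and 7.23 for J147. Stx1a had 6.58 for vehicle and 6.49 for J147 by 1 probe set and 2.74 on both arrays by the other. By their brightest probe sets, Rab3a had 5.45 and Cplx2 had 4.39 on both arrays. None of the differences reached 1.5-fold.

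Relatives of these genes that serve secretion in most cell types were counted in the same way. The share of all genes more than 1 log2 unit above the lowest value was not counted. Of these 17 relatives, 16 lay that far above it, the exception being Stxbp2. They include Snap23, the widely used counterpart of Snap25, with 8.69 for vehicle and 8.63 for J147, and Vamp3, which had 11.58 on both arrays. The largest differences of the list were 0.13 for the SNARE Stx3, -0.12 for Stxbp3, -0.10 for Vamp8 and 0.09 for Napa, all by the brightest probe set. The gene Stx4 was matched through its symbol Stx4a.

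**Figure D3:**
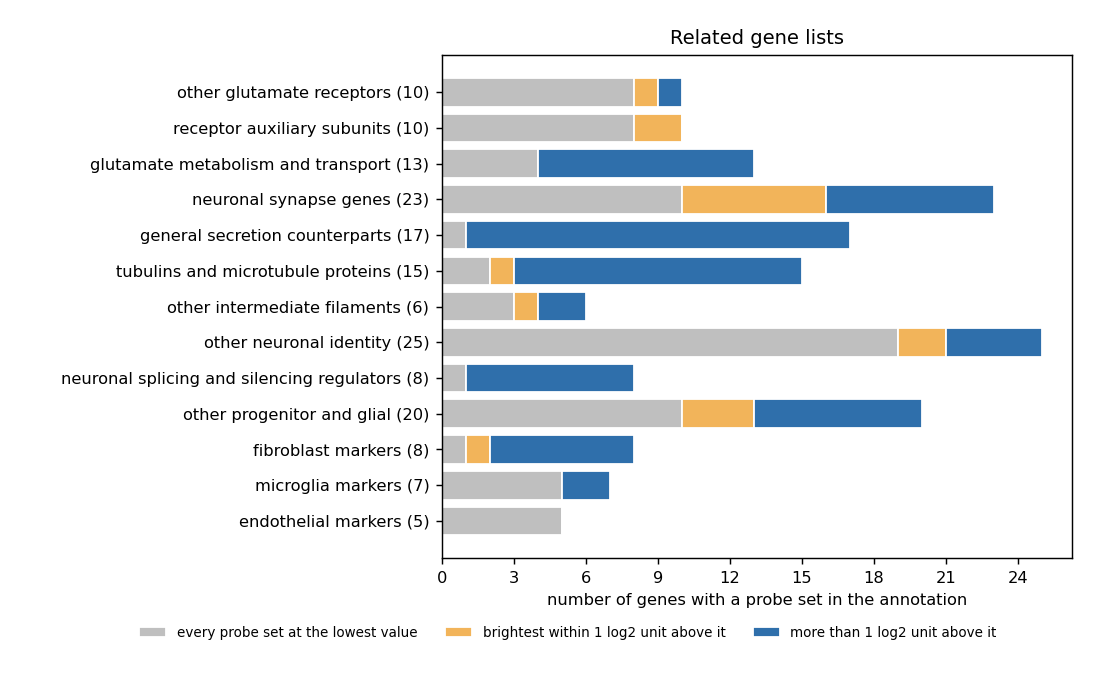
Number of genes (horizontal axis) of related lists (vertical axis, genes with a probe set in parentheses) at the lowest value (grey), within 1 log2 unit above it (orange) and further above it (blue), each gene by its highest probe set. Of the genes of general secretion 16 of 17 are blue, and of other neuronal identity genes 19 of 25 are grey.

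The neuronal cytoskeleton and marker genes were divided as well, with 7 of 12 at the lowest value. These were Map2 of dendritic microtubules, Mapt (tau) of axonal microtubules, the neurofilament genes Nefl and Nefm, Stmn2 of growth cones, Dcx of migrating young neurons and Rbfox3, which encodes the nuclear marker NeuN. Map2, Mapt and Dcx had 4 probe sets each, all at that value.

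The other 5 were well above it. Tubb3, the beta tubulin of neurons, had 8.00 for vehicle and 8.23 for J147 by its single probe set, 1.18-fold higher, and 11.0% of all probe sets between 8 and 10 log2 units differed by at least as much. Map1b, a microtubule protein of growing axons, had 7.97 for vehicle and 8.20 for J147 by one probe set but 5.71 and 5.68 by another, with its last at the lowest value. Stmn1, a regulator of microtubules that dividing cells also express, had 11.60 for vehicle and 11.58 for J147 by the probe set 1415849_s_at and 9.78 and 9.64 by the other. Gap43, a protein of growth cones, had 6.52 for vehicle and 6.54 for J147. Only Tubb3 and 1 probe set of Map1b differed by more than 0.2 log2 units here, apart from Ncam1.

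Ncam1, a cell adhesion molecule of neurons and other cells, had 7 probe sets. The brightest, 1426865_a_at, had 8.06 for vehicle and 8.02 for J147. Probe set 1426864_a_at had 6.65 and 6.54, and 1450437_a_at had 6.17 and 6.09. Probe set 1439556_at had 3.13 for vehicle and 2.65 for J147, 1.40-fold lower and the largest difference of the 49 probe sets. Among all probe sets from 2 to 4 log2 units, 1.91% differed by at least as much. Another had 2.44 on both arrays and the remaining 2 were at the lowest value. The 3 probe sets above 6 log2 units were each lower with J147, by at most 0.11.

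Other proteins of microtubules and filaments were set beside them. Of 15 annotated genes of tubulins and microtubule proteins, 12 lay more than 1 log2 unit above the lowest value. At it were 2, against 38.0% of all annotated genes. Map4, the relative of Map2 found in most cells, had 10.49 for vehicle and 10.30 for J147 by the brightest of its 5 probe sets. The next had 9.13 for vehicle and 9.14 for J147, and the lower ones differed by -0.25, 0.34 and 0.23. The neuronal Tubb2b had 8.53 for vehicle and 8.40 for J147. Dclk1 had 11.57 for vehicle and 11.53 for J147 by the brightest of its 9 probe sets, 2 of which were at the lowest value. Map6 had 7.81 and 7.78 by its brightest probe set. By the brightest probe set Map1a had 5.88 for vehicle and 5.62 for J147, the largest difference of the list at -0.26. Its other probe set went the other way, with 4.34 for vehicle and 4.49 for J147. Map1s had 8.14 and 8.29. Of 6 other intermediate filament genes, the lamins Lmna and Lmnb1 were more than 1 log2 unit above the lowest value, with differences of 0.10 and 0.02. Prph, a filament of peripheral neurons, had 2.36 on both arrays, and Nefh, Ina and Synm were at the lowest value.

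Of the progenitor and granule lineage genes, Vim was the single gene well above the lowest value. Vim, the filament vimentin of progenitors, astrocytes and mesenchymal cells, had 14.78 for vehicle and 14.80 for J147 by 1438118_x_at, 14.30 and 14.41 by 1450641_at, and 14.34 and 14.27 by 1456292_a_at. These differences were 0.03, 0.10 and -0.07, and the SD at that level was 0.05. Nes, the progenitor filament nestin, had 2.50 for vehicle and 2.48 for J147 by 1 of 3 probe sets. Neurod1, a factor that drives neuronal differentiation, had 2.25 for vehicle and was at the lowest value for J147 by 1 of 2 probe sets. The progenitor factors Sox2 and Pax6 and the granule cell factor Prox1 were at the lowest value by all their probe sets.

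Of 8 glial markers, 6 were at the lowest value: the astrocyte genes Gfap, Aqp4, Aldh1l1 and S100b, Olig2 of the oligodendrocyte lineage, and the myelin gene Mbp, by all 8 of its probe sets. Gja1, which encodes the gap junction protein connexin 43 of astrocytes and many other cells, had 11.67 for vehicle and 11.71 for J147 by 1415800_at and 11.63 and 11.66 by 1437992_x_at. Its probe set 1438650_x_at had 10.75 and 10.76, and 1438945_x_at had 10.79 and 10.72. Its last 2 were low, 1438973_x_at with an identical value on both arrays and 1415801_at at 3.53 for vehicle and 3.62 for J147, so probe sets of this gene spanned the range from near the lowest value to far above it. Sox10, a factor of oligodendrocytes and neural crest, had 3.43 on both arrays by 1 of 3 probe sets, the others being at the lowest value. No glial marker differed by more than 0.10 log2 units.

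**Figure D4:**
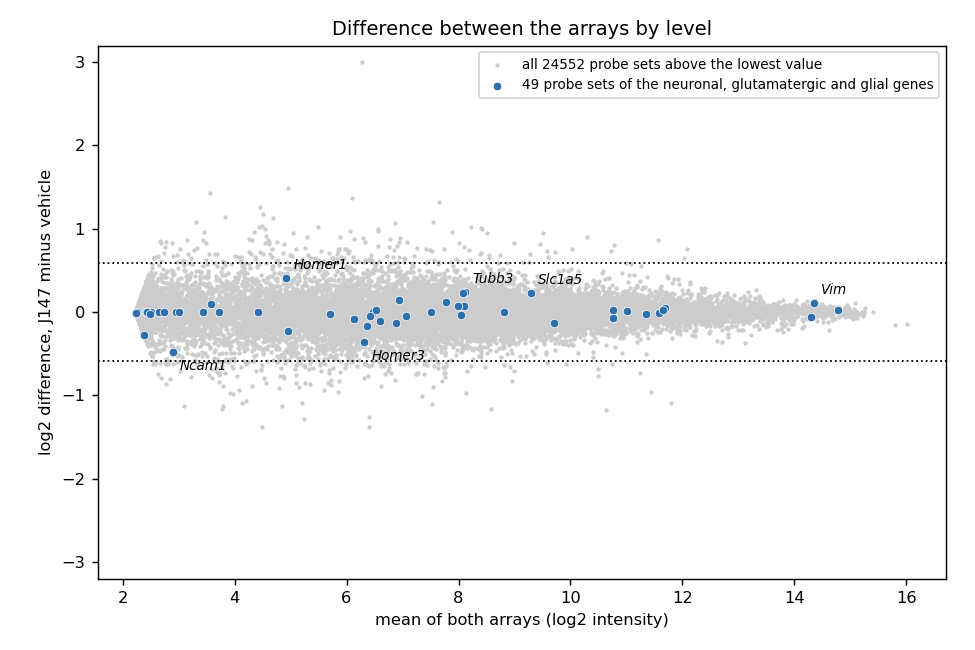
Log2 difference, J147 minus vehicle (vertical axis), against the mean of both arrays in log2 intensity (horizontal axis), for all 24552 probe sets off the lowest value (grey) and the 49 of the genes described here (blue). Dotted lines mark 1.5-fold, and all 49 lie between them.

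The sequence before the start site was compared as a feature that the choice of genes did not use. RefSeq promoters of GRCm38.p6 matched 38 of the 57 genes, 37 of them with a probe set, and the CG dinucleotides in the 250 bases before the start site were counted. In vertebrate genomes such dinucleotides are rare outside CpG islands, which cover the promoters of most widely used genes and of many developmental genes. The 21 genes at the lowest value had from 1 to 40 with a median of 9, and the 16 genes off it had from 2 to 46 with a median of 15.5. Among all genes of the array with a promoter, the medians were 5 for 5268 genes at the lowest value and 16 for 9184 genes off it. Of the genes described here, 6 of the 21 and 6 of the 16 had at least 20. The share of all genes with at least 20 was not counted, so these 2 counts are not read as a result. The upper quartile of all genes was 13 at the lowest value and 23 off it. For the 9 genes with several start sites the first one listed was read.

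Both groups held promoters rich and poor in CG, and 1 of each is printed to show this, chosen after the values were seen. Each stretch is the 250 bases before the start site, 5′ to 3′ on the strand of the gene, with every CG in capitals. Tubb3, off the lowest value, has 21 CG (chr8:123411303-123411552, plus strand). Map2, at the lowest value, has 34 (chr1:66175079-66175328, plus strand). Gja1, off it, has 6 (chr10:56377050-56377299, plus strand), and Gfap, at it, has 2 (chr11:102897201-102897450, minus strand).
Tubb3: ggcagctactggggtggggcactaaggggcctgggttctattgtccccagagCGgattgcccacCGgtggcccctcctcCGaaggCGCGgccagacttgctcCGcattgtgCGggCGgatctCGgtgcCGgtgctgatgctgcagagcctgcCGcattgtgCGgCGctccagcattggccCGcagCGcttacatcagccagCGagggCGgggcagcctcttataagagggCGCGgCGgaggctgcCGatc
Map2: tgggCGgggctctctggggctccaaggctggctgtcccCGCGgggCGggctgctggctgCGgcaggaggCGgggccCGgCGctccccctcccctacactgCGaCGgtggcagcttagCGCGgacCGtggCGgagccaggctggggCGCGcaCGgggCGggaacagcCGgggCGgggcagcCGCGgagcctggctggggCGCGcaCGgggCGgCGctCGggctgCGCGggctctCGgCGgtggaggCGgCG
Gja1: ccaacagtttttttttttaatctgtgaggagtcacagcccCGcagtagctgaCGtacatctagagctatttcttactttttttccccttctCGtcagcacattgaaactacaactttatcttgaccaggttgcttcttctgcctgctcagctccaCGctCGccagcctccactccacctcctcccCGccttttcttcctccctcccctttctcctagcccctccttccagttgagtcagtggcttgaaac
Gfap: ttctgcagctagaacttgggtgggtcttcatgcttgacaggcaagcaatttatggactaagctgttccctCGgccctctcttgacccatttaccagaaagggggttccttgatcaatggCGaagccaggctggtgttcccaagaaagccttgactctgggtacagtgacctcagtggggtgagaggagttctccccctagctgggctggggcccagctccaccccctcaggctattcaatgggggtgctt
The Map2 promoter is the richest in CG of the 4 although all 4 Map2 probe sets were at the lowest value, and the Gja1 promoter has few although 4 of its 6 probe sets were above 10 log2 units.

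**Figure D5:**
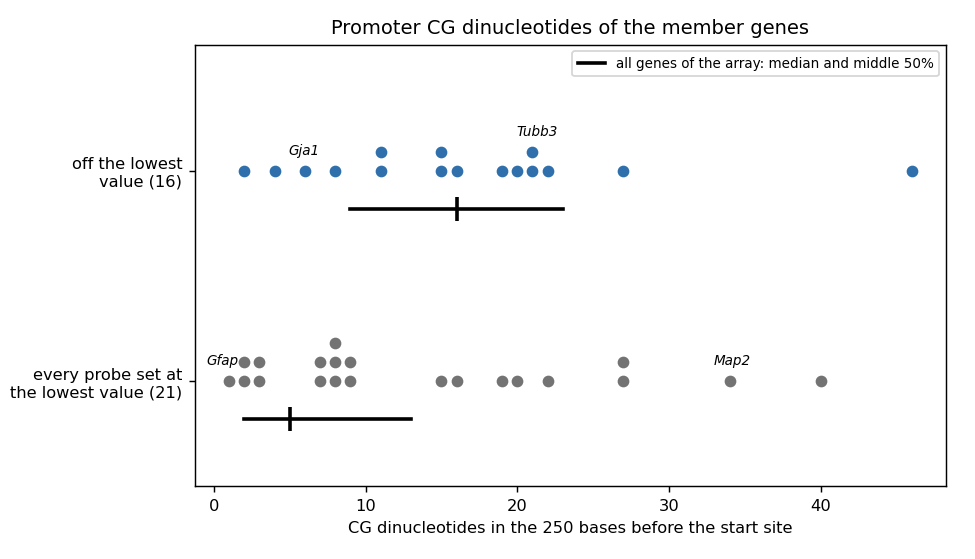
CG dinucleotides in the 250 bases before the start site (horizontal axis) of 21 genes with every probe set at the lowest value (grey) and 16 genes off it (blue), with stacked points for equal counts. Black bars give the median and the middle 50% of all genes of the array in the same class, and the blue and grey points overlap over most of the range.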

How the data were processed

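HT22 RNA was measured on Affymetrix mouse genome GeneChips, with 1 array per condition. The values are log2 intensities that the authors obtained by gcRMA (version not stated), deposited for 45101 probe sets, of which 64 are controls. Expression Console version 1.0 is listed in the submitters' processing notes. The methods' scaling to a median of 100 is not in the deposited values, and because the array medians lie close to the lowest value it was kept as an alternative, with the deposited values used as they are.

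Probe sets were named from the platform annotation, checked through Entrez numbers against RefSeq of GRCm38.p6, which changed 0 symbols. Of the probe sets, 34945 have 1 gene, 932 several and 9160 none. The deposited values name no genome build, and promoter coordinates are those of RefSeq. Where a gene is given by 1 value it is that of the brightest probe set by mean level. A size of 1.5-fold was used in place of a test, and probe sets were read against all those in the same band of 2 log2 units. Every gene chosen is named, and from each of 13 related lists up to 4 genes with the largest difference by the brightest probe set are named. Genes and lists were chosen with earlier results of these data known. Other genes given as examples, and further probe sets of named genes, were picked after their values were seen. Precision is limited by the number of arrays.

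The alternatives were other tolerances for the lowest value, other size thresholds, median scaling, quantile normalization, a lowess curve of span 0.3, a pseudocount of 50 and other ways to count or combine probe sets. Scripts ran under Python 3.11.15 with pandas 2.3.3, numpy 2.4.6, matplotlib 3.10.9 and statsmodels 0.14.6, and were tested on simulated data.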

Additional observations from a re-analysis of the deposited data

How the results depend on the processing

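Under the alternatives 128 values were computed, and 127 moved little, counts by less than 1.5 times and differences by less than 1 SD of the probe sets at that level. Since most differences of single genes were themselves that small, this does not fix their direction. With the mean of all probe sets of a gene off the lowest value in place of the brightest, the sign turned for 4 of 12 genes, Vamp2 (from 0.14 to -0.04), Slc1a3 (0.12 to -0.00411), Slc1a4 (0.07 to -0.04) and Homer1 (-0.05 to 0.00872), and the difference fell from 0.23 to 0.11 for Slc1a5 and from 0.23 to 0.10 for Map1b. The other scalings turned the sign of 4 genes whose difference was at most 0.03. The value that moved was the number of probe sets past the size threshold, which was 0 at 1.5-fold and 4 at 1.2-fold, by construction. The 34 genes with every probe set at the lowest value became 28 when only the exact minimum counted and 38 within 1 log2 unit of it. The 107 probe sets became 99 and 119. Without probe sets ending in _x_at, _s_at and _a_at, 80 probe sets and 33 genes were at it. The median difference of the 22 genes off the lowest value lay between -0.00292 with arrays scaled to a median of 100 and 0.00978 with the lowess curve, on both sides of 0. Leaving out probe sets with identical values, an alternative chosen after seeing the data, gave 0.00220. No paired analysis was possible because there is 1 array per condition. Probe sets at the lowest value can show no decrease, and for the 34 genes there a rise would have been read only once it brought the signal above that value.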

Other observations

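Of 25 other genes of neuronal identity with a probe set, 19 were at the lowest value as well, against 38.0% of all annotated genes. Among them were the RNA binding proteins Elavl3 and Elavl4, the ubiquitin hydrolase Uchl1, the granin genes Chga and Chgb and the cortical factors Tbr1 and Bcl11b. Eno2 (2.84 on both arrays) and Scg2 (2.35 on both) were within 1 log2 unit of it. The exceptions were 4 genes. Emx2, a homeobox factor of the developing forebrain, had 7.83 for vehicle and 7.69 for J147 on the log2 intensity scale. Zbtb20, a factor of hippocampal pyramidal neurons, had 7.67 for vehicle and 7.47 for J147 by the brightest of its 9 probe sets. The other Zbtb20 probe sets off the lowest value went both ways, with differences from -0.14 to 0.15. Elavl2 had 8.58 for vehicle and 8.30 for J147 by its brightest probe set, 8.48 and 8.40 by the next and 5.05 and 5.18 by another. Celf4, an RNA binding protein of neurons, was higher with J147 by each of its 3 probe sets, with 7.68 and 8.00, 9.54 and 9.88, and 8.19 and 8.67. These log2 differences were 0.31, 0.34 and 0.47, and 12.03%, 3.98% and 1.26% of all probe sets in the same band of level differed by that size or more. None reached 1.5-fold, and probe sets of 1 gene on 1 pair of arrays are not replicates.

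Of 8 regulators of neuronal splicing and gene silencing, 7 lay more than 1 log2 unit above the lowest value. The remaining 1 was at it, against 38.0% of all annotated genes, and the share of all genes more than 1 log2 unit above it was not counted. Rest, which silences neuronal genes in other cell types, had 9.52 for vehicle and 9.44 for J147 by its brightest probe set. Its next probe set went the other way, with 8.80 and 8.92, another had 2.40 and the last 2.75 on both arrays. The Rest corepressor Rcor1 had 10.02 and 9.91 by its brightest probe set. Ptbp1, a splicing repressor of cells that are not neurons, had 12.29 for vehicle and 12.30 for J147 by its brightest probe set. Ptbp2 had 10.70 for vehicle and 10.67 for J147 by 1 probe set and 2.56 on both arrays by the other. Celf1 had 12.85 and 12.87 by its brightest probe set. Nova1 had 6.42 for vehicle and 6.33 for J147, Srrm4 had 5.31 and 5.14, and Nova2 was at the lowest value.

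Of 20 annotated genes of other progenitor and glial markers, 7 lay more than 1 log2 unit above the lowest value. Another 10 were at it, against 38.0% of all annotated genes. Sox9, a factor of glial progenitors, cartilage and many epithelia, had 8.82 for vehicle and 9.30 for J147 by its brightest probe set and 8.18 and 8.67 by the next. The differences of 0.48 and 0.50 were matched by 1.18% and 1.06% of all probe sets at that level, and the third probe set, at 3.05 and 3.14, differed by 0.09. Pdgfra, a receptor of oligodendrocyte precursors and mesenchymal cells, had 9.14 for vehicle and 8.80 for J147 by its brightest probe set, while its other 2 differed by -0.08 and -0.03. Msi2 differed by 0.16 and Cd44 by 0.13 by their brightest probe sets. The other Msi2 probe sets off the lowest value differed by -0.10 to 0.05. Those of Cd44 differed by 0.29, which 3.07% of all probe sets at that level matched, and by 0.05. Of the genes of other cell types, each by its brightest probe set, the largest differences were -0.54 for Tmem119, with 7.85 for vehicle and 7.31 for J147, and -0.47 for Pdgfrb, with 9.56 and 9.08, whose other probe set had 5.93 on both arrays. Tmem119 is known from microglia and from bone-forming cells, and of the other microglia markers Csf1r had 4.96 on both arrays by 1 of 3 probe sets and Aif1, Cx3cr1, Itgam, Ptprc and P2ry12 were at the lowest value. Col3a1 differed by -0.19 and Fn1 by -0.09 by their brightest probe sets. The other Col3a1 probe set had 9.03 for vehicle and 8.67 for J147, a difference of -0.36, which 3.16% of all probe sets at that level matched. Another Fn1 probe set had 6.23 for vehicle and 6.75 for J147, a difference of 0.52.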
